A study of Mus musculus with 95 samples.

Results

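The miR-7 family was followed across the striatum, cortex and liver of zQ175 knock-in (KI) mice and wild type (WT) littermates by small RNA sequencing. Its members were 3 rows of a table of 1881 features, MI0000263 (mir-7-1), MI0000264 (mir-7-2) and MI0000265 (mir-7-3), summed into 1 level per library. They were chosen by identifier and not by a cut on their values, with earlier results of these data known. The 95 libraries came from 32 mice aged 6 months on a C57BL6/J background, of which 31 gave all 3 tissues. Heterozygous zQ175 mice carry an expanded CAG repeat in the mouse huntingtin gene and are used as a model of Huntington's disease.

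The 4 groups in each tissue were heterozygous KI mice of strain CHDI-81003019, which lack the neo (neomycin resistance) cassette (neo-deleted), their WT littermates, heterozygous KI mice of strain CHDI-81003003, which keeps the cassette (neo-intact), and their WT littermates. Each group held 8 mice, 4 of each sex, except neo-deleted KI striatum with 7. RNA came from whole pieces of frozen left striatum, left cortex or left liver lobe, so fewer cells of a type and less miR-7 per cell cannot be told apart. The tissue labels were not checked against tissue-specific miRNAs, because outside the 3 rows no feature was matched to a name. Library names carry an L number (L1, L2, L3, L7 or L8). The labels do not say what it stands for, and comparisons were made inside an L number or with it as a term in the model.

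MicroRNAs are short RNAs that lead the Argonaute silencing complex to messenger RNAs, chiefly by pairing of bases 2 to 8 of the miRNA, the seed, with sites in 3′ untranslated regions. miR-7 is a deeply conserved miRNA of neuroendocrine cells and neurons. In mouse brain much of it is bound by the circular RNA Cdr1as, which holds many miR-7 sites and alters the stability of the miRNA.

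The mature mouse sequences show why the rows were summed. Both forms of the 5p arm share 1 seed, in capitals, and differ by the substitution A10U over the 23 bases they share, counted from the 5′ end and written from miR-7a to miR-7b:
mmu-miR-7a-5p: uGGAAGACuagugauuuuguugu
mmu-miR-7b-5p: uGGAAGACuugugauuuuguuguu
Of 1679 mature mouse miRNA names in RefSeq (build GRCm38.p6), these 2 had this seed, and they came from 3 genes. Their hairpins, with the 5p arm in capitals, show that Mir7-1 and Mir7-2 give an identical 5p arm, so that a read of it does not tell which gene made it:
Mir7-1: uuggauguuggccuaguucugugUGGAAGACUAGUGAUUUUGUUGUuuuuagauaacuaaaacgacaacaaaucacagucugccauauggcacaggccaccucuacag
Mir7-2: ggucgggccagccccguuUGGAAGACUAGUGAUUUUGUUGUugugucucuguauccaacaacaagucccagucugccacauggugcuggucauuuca
Mir7b: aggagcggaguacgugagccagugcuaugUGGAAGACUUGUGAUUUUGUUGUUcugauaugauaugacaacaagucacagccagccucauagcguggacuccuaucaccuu

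Mir7-1 lies at chr13:58392779-58392886 on the minus strand, inside an intron of Hnrnpk, an RNA-binding protein gene on the same strand, in all 12 annotated transcripts that span it. Mir7-2 lies at chr7:78888277-78888373 on the plus strand and overlaps no other annotated gene, the nearest being Aen at 7481 bases. Mir7b lies at chr17:56242988-56243098 on the plus strand, outside other genes and 183 bases from the lincRNA AC026385.1. These positions are on GRCm38, the assembly also called mm10, with gene models of GENCODE M21.

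The names mir-7-1, mir-7-2 and mir-7-3 are those of the human miR-7 hairpins, which all yield the same mature 5p arm, and mouse has Mir7b where human has MIR7-3. Each row had an implied length of 110 nt, the estimated count divided by the deposited FPKM value and the library total, against 108, 97 and 111 nt for mouse Mir7-1, Mir7-2 and Mir7b in RefSeq. The sources used here do not state the species of the reference, so a row stands for the entry to which the authors assigned a read and not for a known mouse gene.

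Total estimated counts per library ran from 74540 to 496035 with a median of 124029. The 26 libraries with L number 8 (L8) were deeper, at 297046 to 496035, than the other 69, at 74540 to 164218. L8 held 14 striatal and 12 cortical libraries, and the remaining striatal libraries were L7. The remaining cortical libraries were L1 except 1 in L2, and the liver libraries were L1, L2 or L3. Levels below are CPM (counts scaled by the library total), with SD over libraries.

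miR-7 was a miRNA of middle rank in brain and near the limit of detection in liver. The summed estimate had a median of 26.2 counts per striatal library (9.14 to 115), 17.8 per cortical library (1.72 to 94.7) and 3.44 per liver library (0 to 13.8). Its median rank by count was 154 in striatum, where a median of 254 features had at least 0.5 counts, and 159 of 248 in cortex. No striatal or cortical library was without miR-7, whereas 10 of 32 liver libraries had under 0.5 counts. The mean over all 32 liver libraries, these 10 included, was 44.9 CPM. In those 10, the limit that a count of 0 allows (3 counts) ran from 23.98 to 40.1 CPM, below that mean, and covers counting error only. It takes 1 estimated count as 1 read. Of the 22 liver estimates of at least 1 count, 13 stood at whole multiples of 3.44, so the limit may be higher.

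**Figure D1:**
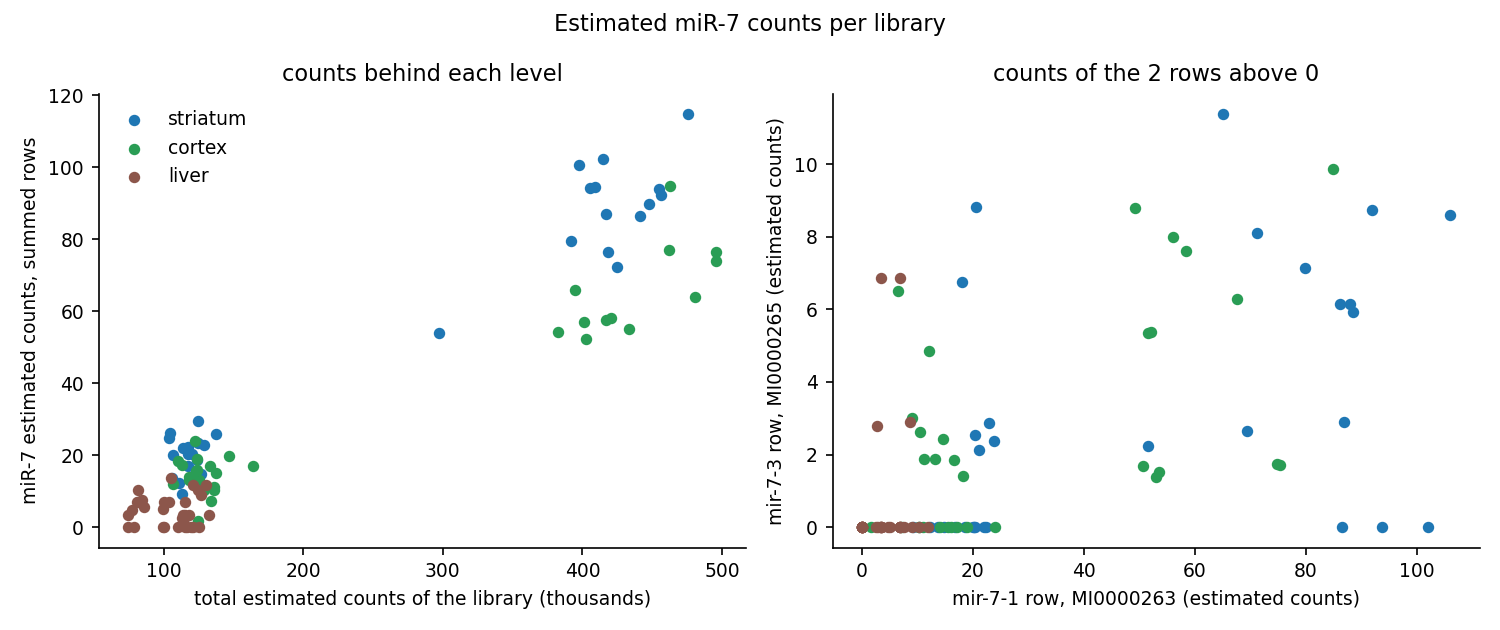
Estimated miR-7 counts against the library total (left), and the counts of the mir-7-3 row against those of the mir-7-1 row (right), 1 point per library, coloured by tissue. Libraries at the upper right of the left panel are the 26 of L8, and mir-7-1 held 92.8% of all miR-7 counts.

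Nearly all miR-7 counts stood in 1 row. mir-7-1 held 2597 estimated counts over the 95 libraries (92.8% of the sum) and mir-7-3 held 201 (7.17%). mir-7-2 had no estimate that rounded to 1 in any library. Estimates were not whole within 0.005 in 77 of the 85 libraries with at least 1 count of mir-7-1, and in 40 of the 42 with at least 1 count of mir-7-3.

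The share of mir-7-3 varied between libraries. Within L8 it ran from 0 to 14.9% in striatum (median 6.41%, n = 14, with 3 libraries under 0.5 counts) and from 2.22 to 15.2% in cortex (median 8.94%, n = 12), so the tissues overlapped. How the authors divided reads that match several entries is not given in the sources used here. The split between rows is therefore uncertain, and the rows are not compared as if they were separate genes.

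The summed level was highest in striatum and lowest in liver. Striatum stood at 189.5 ± 42.8 CPM (SD, n = 31), cortex at 126 ± 38.6 CPM (n = 32) and liver at 44.9 ± 40.1 CPM (n = 32). In animals with all tissues, striatum was above cortex in 28 of 31, and liver was below cortex in 27 of 31 and below striatum in 31 of 31. These within-animal counts cross L numbers, and the part of the L number in them was not tested. Liver and striatum shared no L number and are set side by side only.

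**Figure D2:**
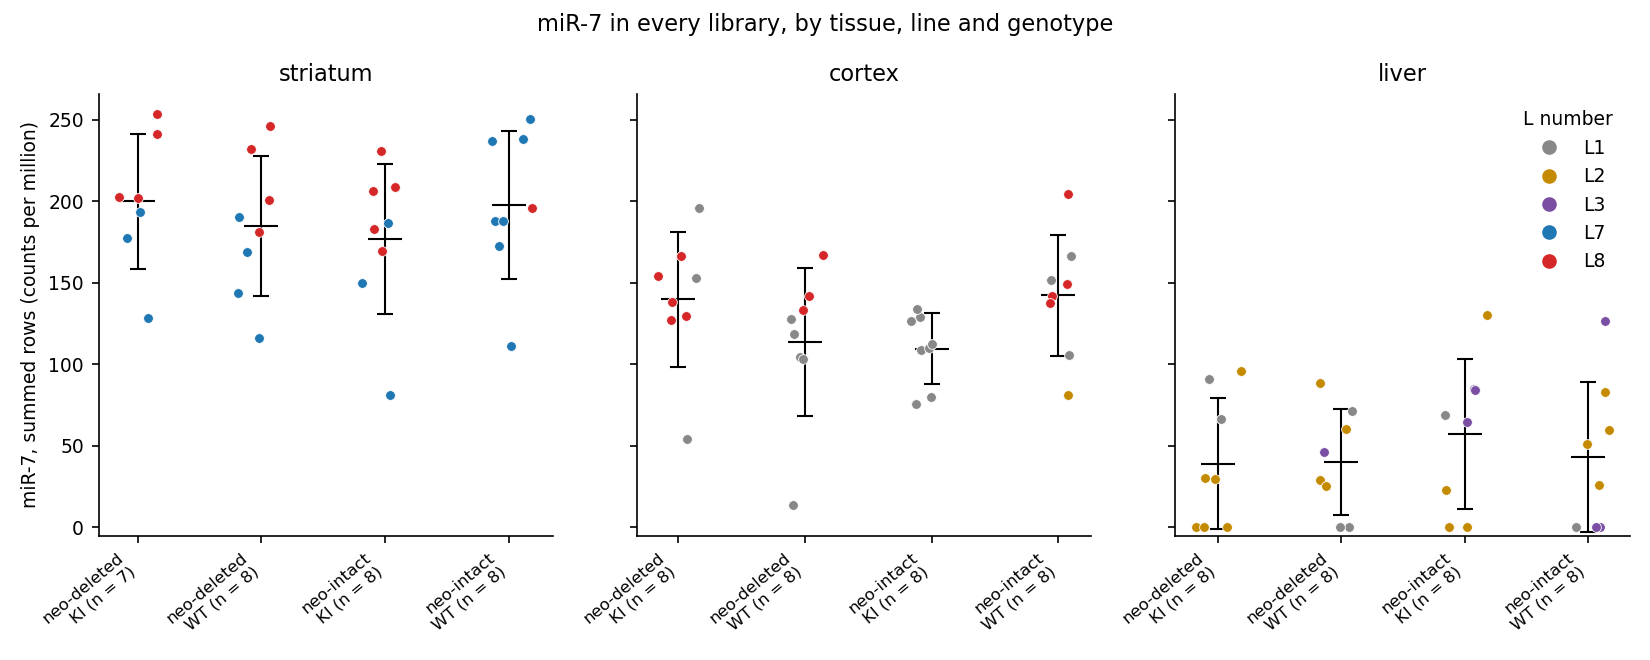
miR-7 in every library (points, CPM on a linear axis) by tissue, line and genotype, coloured by L number, with the mean (long tick) and SD (bars). Striatal groups average 177 to 199.9 CPM, cortical groups 109.5 to 142 CPM and liver groups 39.1 to 57.1 CPM, and KI and WT libraries overlap in each pair.

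L8 was the L number with libraries of both brain regions. Its 5 WT striatal libraries had 181, 196, 201, 232 and 246 CPM, and its 7 WT cortical libraries had 133 to 205 CPM with a median of 142. One cortical library, neo-intact WT female 1 at 205 CPM, lay among the striatal values, and the other 6 lay below all of them. The log2 difference, striatum over cortex, was 0.39 (SE 0.17, 95% interval 0.01 to 0.76), a 1.31-fold level. This did not pass the test (edgeR quasi-likelihood, Benjamini-Hochberg adjusted p = 0.0991), in a comparison where 88 of 218 features (40.4%) were called at an adjusted p under 0.05.

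With KI mice included, the same comparison had more libraries and passed. Its model held sex and each combination of line and genotype as terms. L8 had 5 neo-intact KI libraries in striatum and no such library in cortex, so those 5 did not inform the difference. The 14 striatal L8 libraries had 169.8 to 253 CPM (median 204) and the 12 cortical L8 libraries 127 to 205 CPM (median 142). Of the striatal libraries, 7 lay above the highest cortical one, among them neo-intact KI libraries at 206, 208 and 231 CPM. The log2 difference was 0.45 (SE 0.095, 95% interval 0.25 to 0.65, adjusted p = 0.000252, edgeR), and 55.1% of 216 features were called. With the animal as a random block in limma it was 0.47 (SE 0.10, adjusted p = 0.000331), where 53.2% were called, although 3 of the 23 animals gave both tissues. In those 3 animals striatum was above cortex: 181 and 167 CPM in neo-deleted WT female 3, 203 and 127 CPM in neo-deleted KI male 4, and 253 and 129.8 CPM in neo-deleted KI female 4. The higher level in striatum was thus called with KI mice included, where most features differed between the regions, and not in WT mice alone.

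Liver was compared with cortex inside L1. In WT mice, 3 of 4 liver libraries had under 0.5 counts, and the fourth, neo-deleted WT female 3, had 71.2 CPM from 9.02 counts. The 8 WT cortical L1 libraries had 13.8 to 167 CPM with a median of 112. The log2 difference, liver over cortex, was -2.22 (SE 0.79, 95% interval -3.96 to -0.48, adjusted p = 0.0191, edgeR), in a comparison where 92.6% of 188 features were called and the median feature was at -1.25. The value rests on few counts: it was -6.65 without the liver library of neo-deleted WT female 3 and -1.75, no longer called (adjusted p = 0.0724), without that of neo-intact WT male 2. With the animal as a random block in limma it was -3.14 (adjusted p = 0.00152), where 91.5% were called and 2 of the 10 animals gave both tissues. With KI mice it was -1.16 (SE 0.45, adjusted p = 0.0180, n = 7 and 19, with 93.8% of 192 features called), close to the median feature at -1.26. The 3 KI liver libraries of L1 had 66.4, 68.8 and 90.7 CPM.

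**Figure D3:**
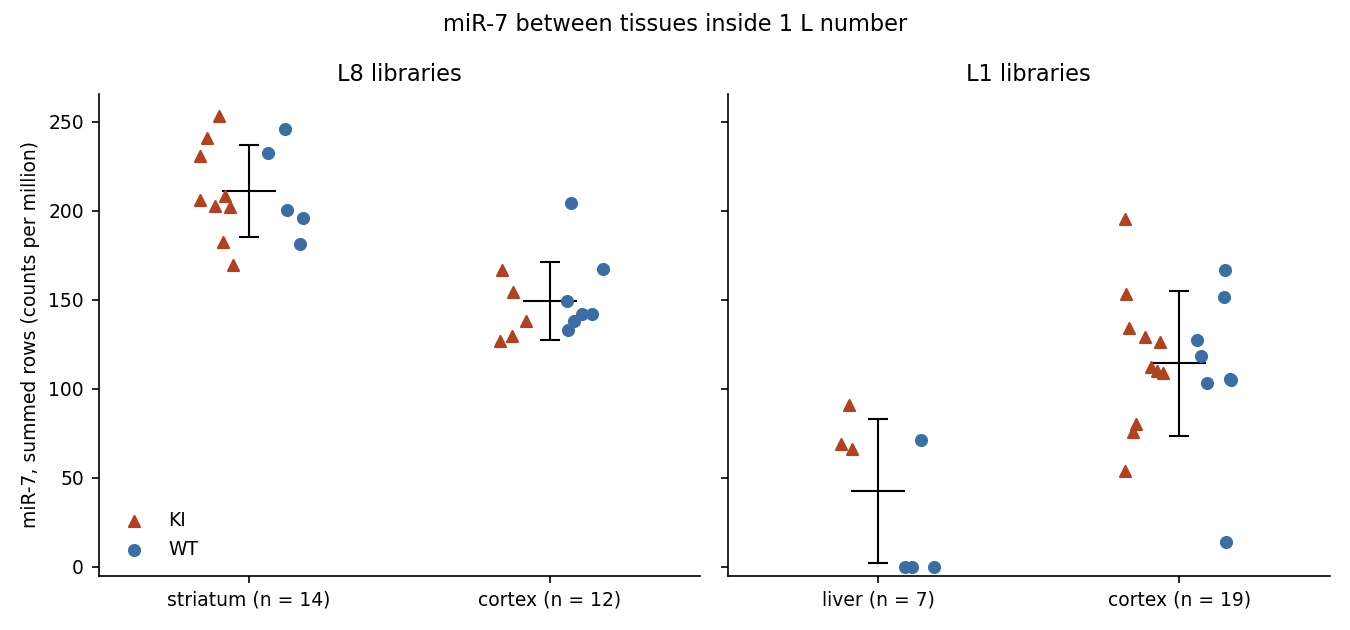
miR-7 (CPM, linear axis) in striatum and cortex libraries of L8 (left) and in liver and cortex libraries of L1 (right), with KI as triangles and WT as circles, and the mean and SD of all libraries of a tissue. Striatum averages 211 and cortex 149 CPM within L8, and liver averages 42.4 and cortex 114 CPM within L1.

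In striatum of neo-deleted mice, the miR-7 levels of KI and WT animals overlapped. Within L7 the KI libraries had 128, 178 and 194 CPM and the WT libraries 116, 144, 169 and 190.4 CPM. Within L8 the KI libraries had 202, 203, 241 and 253 CPM and the WT libraries 181, 201, 232 and 246 CPM. In each L number the highest library was from a KI mouse and the lowest from a WT mouse, with the rest interleaved. The log2 difference over all 15 libraries, from the fit of all 31 striatal libraries, was 0.16 (SE 0.14, 95% interval -0.12 to 0.45, adjusted p = 0.434, edgeR), which covers 0.921-fold to 1.36-fold. In this comparison 29 of 188 features (15.4%) were called. The L8 libraries alone, with 53.8 to 115 miR-7 counts each, gave 0.08 (SE 0.13, 95% interval -0.20 to 0.37), where 14.5% of 234 features were called (34 features), and their exact two-sided permutation p was 0.6 (4 and 4 libraries, smallest possible 0.0286). The L7 libraries gave 0.22 (SE 0.29), where 4.4% of 182 features were called (8 features). The count of called features was 16 to 22 in L8 without KI male 2, KI male 4, KI female 2, WT female 3, WT male 1 or WT male 2, and 5 in L7 without KI male 3, WT female 1 or WT female 2.

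In striatum of neo-intact mice the levels overlapped too. Within L7 the KI libraries had 80.9, 149.8 and 186 CPM, and the 7 WT libraries had 111 to 250.5 CPM with a median of 188. One KI library, female 1 at 80.9 CPM from 9.14 counts, lay below all WT libraries of L7. Within L8 the KI libraries had 169.8, 183, 206, 208 and 231 CPM, and the only WT library had 196 CPM, inside the KI range. In the fit of all 31 striatal libraries with the L number as a term, the log2 difference, KI over WT, was -0.25 (SE 0.16, 95% interval -0.57 to 0.07, adjusted p = 0.413, edgeR). That interval covers 0.673-fold to 1.05-fold, and again 29 of 188 features (15.4%) were called. Within L7 the log2 difference was -0.39 (SE 0.26, adjusted p = 0.552, edgeR), where 8.24% of 182 features were called (15 features, and 6 without KI male 1 or 7 without KI female 1). The L7 difference in mean log2 CPM had an exact two-sided permutation p of 0.133 (3 and 7 libraries, smallest possible 0.00833), or 0.485 adjusted over the 10 such tests. Within L8 the log2 difference, with 1 WT library assumed to vary like the others, was -0.02 (SE 0.21), where 1.28% of 234 features were called.

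In cortex of neo-deleted mice the KI libraries of L1 had 54, 153 and 196 CPM and the WT libraries of L1 had 13.8, 104, 105, 119 and 128 CPM. The lowest of these, WT male 2, held 1.72 miR-7 counts in a library of 124344. Within L8, where each library had 52.3 to 77 miR-7 counts, the KI libraries had 127, 129.8, 138, 154 and 167 CPM and the WT libraries 133, 142 and 167 CPM. The difference was 0.57 within L1 (SE 0.40) and -0.03 within L8 (SE 0.17, 95% interval -0.40 to 0.33), with exact two-sided permutation p of 0.571 and 0.679. In these, edgeR called 0 of 187 and 0 of 212 features, with 9 and 19 at an unadjusted p under 0.05, and DESeq2 called 0. In the fit of all 32 cortical libraries the difference was 0.20 (SE 0.21, 95% interval -0.23 to 0.64, adjusted p = 0.862, edgeR). Without 1 library of this group pair it ran from 0.02 (without KI male 2) to 0.32 (without KI female 2 or WT female 3), with 0.09 without WT male 2. In both lines of cortex edgeR and DESeq2 called 0 of 186 features between KI and WT (0%), and edgeR had 9 in neo-deleted and 15 in neo-intact mice at an unadjusted p under 0.05.

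In cortex the neo-intact KI libraries were all L1, and WT libraries were spread over L1, L2 and L8. The 8 KI libraries had 75.8 to 134 CPM with a median of 111, and the 3 WT libraries of L1 had 105, 152 and 167 CPM. A pair of WT libraries lay above all KI libraries and the remaining one within their range. The log2 difference within L1 was -0.30 (SE 0.37, 95% interval -1.08 to 0.48, adjusted p = 0.860, edgeR), with an exact two-sided permutation p of 0.145 (smallest possible 0.00606). The WT libraries outside L1 had 138, 142, 149 and 205 CPM in L8 and 81.4 CPM in L2. With all libraries and the L number as a term the difference was -0.19 (SE 0.26, 95% interval -0.73 to 0.35, adjusted p = 0.780).

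In liver no genotype difference passed the test. Neo-deleted KI libraries averaged 39.1 ± 40.3 CPM and WT libraries 40.1 ± 32.4 CPM (SD, n = 8 each), with 3 KI and 2 WT libraries under 0.5 counts. Neo-intact KI libraries averaged 57.1 ± 46 CPM and WT libraries 43.2 ± 45.8 CPM (n = 8 each), with 2 KI and 3 WT libraries under 0.5 counts. The highest liver library of the series, at 130.4 CPM, was from a neo-intact KI mouse and the next, at 126 CPM, from a neo-intact WT mouse. The log2 differences, KI over WT, were 0.05 in neo-deleted mice (SE 0.80, 95% interval -1.59 to 1.69) and 0.42 in neo-intact mice (SE 0.77, 95% interval -1.15 to 2). In both lines edgeR called 0 of 132 features (0%), with 4 in neo-deleted and 13 in neo-intact mice at an unadjusted p under 0.05, and DESeq2 called 0. In neo-intact mice edgeR called 2 without KI female 2 and 1 without WT male 2.

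**Figure D4:**
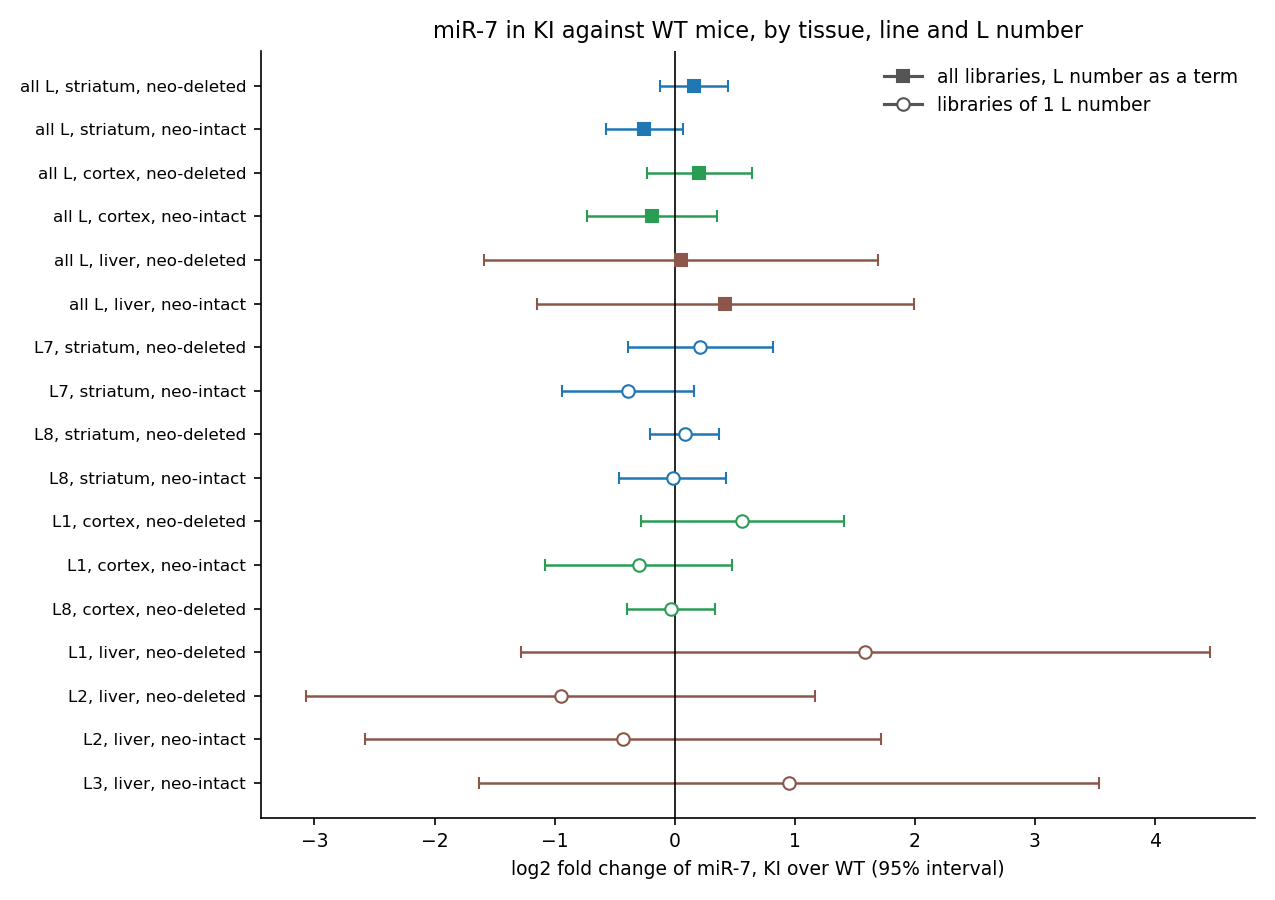
Log2 fold change of miR-7, KI over WT, in each line, with 95% intervals from edgeR, coloured by tissue. The fits held all libraries of a tissue with the L number as a term (filled squares) or those of 1 L number (open circles). Each of the 17 intervals includes 0, and those of liver are the widest.

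Inside single L numbers, the liver values had different signs and none passed the test. The 4 log2 differences, KI over WT, were 1.59 in L1 of neo-deleted mice (SE 1.2), -0.95 in L2 of neo-deleted mice (SE 1.01), -0.43 in L2 of neo-intact mice (SE 1.02) and 0.95 in L3 of neo-intact mice (SE 1.10). Without 1 library these ran from 1.05 to 6.12, from -2.18 to -0.54, from -2.39 to -0.03 and from 0.39 to 5.7, in the same order. The exact two-sided permutation p ran from 0.133 to 0.4. For 2 against 3 and 3 against 3 libraries these tests cannot go below 0.1. edgeR called 0 features in these 4 comparisons, with 2 to 10 at an unadjusted p under 0.05, and DESeq2 called 1, in L2 of neo-intact mice. In that last comparison edgeR called 4 without neo-intact WT male 4, and 1 without neo-deleted KI female 3 or neo-intact KI female 1.

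With the L number as a term, the KI estimate was above 0 in the neo-deleted line and below 0 in the neo-intact line in both brain regions, none of them past the test, and the difference between the lines did not pass either. In L7 striatum and L1 cortex the signs were the same, at 0.22 and 0.57 (neo-deleted) and -0.39 and -0.30 (neo-intact). Those libraries are part of the fits with the L number as a term, and all 8 neo-intact KI cortical libraries were L1. The same signs are therefore no independent support. In the deeper L8 the values were 0.08 in neo-deleted striatum, -0.02 in neo-intact striatum and -0.03, the other sign, in neo-deleted cortex. The regions came largely from the same mice. In striatum the neo-deleted effect minus the neo-intact effect was 0.42 (SE 0.20, 95% interval -0.004 to 0.83, unadjusted p = 0.0520, adjusted p = 0.865, edgeR), where 1 of 188 features (0.532%) was called. It was 0.26 (SE 0.19) with mir-7-1 alone and 2.23 (SE 1.21) with mir-7-3 alone, and ran from 0.31 to 0.53 without 1 library. In cortex it was 0.39 (SE 0.35, adjusted p = 0.644) and in liver -0.37 (SE 1.13, adjusted p = 0.997), with 0 features called (0%) by edgeR and DESeq2 in either tissue. At an unadjusted p under 0.05 edgeR had 14 in cortex and 10 in liver. Between the brain regions, the striatal KI effect minus the cortical one was -0.03 in neo-deleted mice (SE 0.25, 95% interval -0.53 to 0.47) and -0.001 in neo-intact mice (SE 0.36, 95% interval -0.72 to 0.72), where 3.09% of 194 features were called in each. This fit treats the tissues of a mouse as independent, although 31 of the 32 mice gave both. With the animal as a random block in limma, added after seeing the data, the values were -0.02 (SE 0.28, 95% interval -0.57 to 0.54) and -0.09 (SE 0.32, 95% interval -0.73 to 0.54), and 3.61% of features were called in each line.

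Between WT mice of the lines no difference in miR-7 passed the test. The log2 difference, neo-deleted over neo-intact WT, was -0.25 in striatum (SE 0.15), -0.26 in cortex (SE 0.22) and -0.11 in liver (SE 0.83), with adjusted p of 0.903, 0.774 and 0.996 from edgeR. The group means were 185 ± 43.1 and 198 ± 45.2 CPM in striatum, 114 ± 45.4 and 142 ± 37.2 CPM in cortex, and 40.1 ± 32.4 and 43.2 ± 45.8 CPM in liver, for neo-deleted and neo-intact WT mice (SD, n = 8 each). edgeR called 0 features (0%) in these comparisons, with 8, 14 and 8 at an unadjusted p under 0.05, and DESeq2 called 0 in striatum and cortex and 1 in liver. In liver edgeR called 2 without neo-intact WT male 3, and 1 without neo-deleted KI male 2 or neo-intact KI female 4.

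No difference between female and male mice in miR-7 passed the test. Striatum of females averaged 179 ± 50.6 CPM (n = 16) and of males 201 ± 30.3 CPM (n = 15), but 11 of the females' and 6 of the males' libraries were in the shallower L7. With group and L number in the model the log2 difference, female over male, was -0.06 (SE 0.10, adjusted p = 0.977, edgeR). It was 0.06 in cortex (SE 0.16, adjusted p = 0.947) and 0.25 in liver (SE 0.58, adjusted p = 0.820). In liver 21 of 132 features (15.9%) were called between the sexes, in striatum and cortex 0 (0%) by edgeR and DESeq2, with 19 and 10 at an unadjusted p under 0.05.

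Most features differed between L numbers, and under TMM scaling miR-7 was not among them. L8 striatal libraries averaged 211 ± 25.8 CPM (n = 14) and L7 ones 172 ± 46.5 CPM (n = 17), and L8 cortical libraries averaged 149 ± 21.7 CPM (n = 12) and L1 ones 114 ± 40.8 CPM (n = 19). The log2 difference, L8 over the other, was 0.09 in striatum (SE 0.12, adjusted p = 0.466, edgeR) and 0.03 in cortex (SE 0.19, adjusted p = 0.901). In the same comparisons 159 of 188 features (84.6%) and 131 of 186 (70.4%) were called. Scaled by total counts alone, the striatal value was 0.38 and was called (adjusted p = 0.00498), and the cortical one was 0.30 (adjusted p = 0.153). A statement that miR-7 was higher in L8 thus depends on the scaling, and the median feature was at 0.17 in striatum and 0.12 in cortex under TMM.

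The SD between libraries, which holds differences between mice, lines and genotypes, can be set beside the SD that counting alone would give. In L8 the SD between striatal libraries was 25.8 CPM and the counting SD 22.6 CPM, and in cortex it was 21.7 against 18.5 CPM. In L7 striatum it was 46.5 against 38.4 CPM, in L1 cortex 40.8 against 30.3 CPM, and in liver 40.1 against 21.3 CPM. The counting SD takes each estimate as a count of independent molecules, which reads without molecular identifiers are not, so the part of counting in the spread was not tested. For the liver differences between KI and WT, counting alone gave an SE of 0.36 (of 0.80) in neo-deleted and 0.33 (of 0.77) in neo-intact mice.

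Liver estimates also came in steps. Of the 22 liver libraries with at least 1 miR-7 count, 5 had an estimate of 3.44 and 5 had 6.88, and 13 stood at a whole multiple, up to 4, of the first of these values within 0.005. Some L1 cortical estimates also stood at whole multiples of 3.44. They were 10.3 counts in neo-intact KI male 1 and male 4, and 17.2 in neo-intact WT female 3. What 1 read was worth in these estimates is not given in the sources used here, so the counting error in liver and in L1 cortex may be larger than stated.

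Pooled over L numbers, the means of the 12 groups ran from 199.9 CPM in neo-deleted KI striatum to 39.1 CPM in neo-deleted KI liver. The 4 striatal groups came first, at 177 to 199.9 CPM, then the 4 cortical groups, at 109.5 to 142 CPM, then the 4 liver groups, at 39.1 to 57.1 CPM. Neighbours in this order differed by less than the larger of their SDs, except that neo-intact KI cortex stood 52.5 CPM above neo-intact KI liver. The groups held different shares of L8 libraries, and inside an L number the order of the groups of a tissue was another.

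In L7 striatum the order was neo-intact WT (198 CPM, n = 7), neo-deleted KI (167 CPM, n = 3), neo-deleted WT (155 CPM, n = 4) and neo-intact KI (139 CPM, n = 3). In L8 striatum it was neo-deleted KI (225 CPM, n = 4), neo-deleted WT (215 CPM, n = 4), neo-intact KI (199.6 CPM, n = 5) and the 1 neo-intact WT library (196 CPM). Neo-intact WT was thus first in L7 and last in L8. In L1 cortex the order was neo-intact WT (141 CPM, n = 3), neo-deleted KI (134 CPM, n = 3), neo-intact KI (109.5 CPM, n = 8) and neo-deleted WT (93.6 CPM, n = 5). In L8 cortex it was neo-intact WT (158 CPM, n = 4), neo-deleted WT (147 CPM, n = 3) and neo-deleted KI (143 CPM, n = 5).

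The 5 features whose levels followed miR-7 most closely across the 63 striatal and cortical libraries were MI0000808, MI0000062, MI0000100, MI0000802 and MI0000274. Pearson's r of log2 CPM, after subtracting the mean of each tissue and L number, was 0.427, 0.386, 0.369, 0.366 and 0.321. Among the 181 features compared the median r was 0.027 and the lowest -0.335. The points share libraries, depth and the low miR-7 counts of L7 and L1. The features were picked by r over these same libraries, so r within parts of them is no independent support. MI0000062, MI0000100 and MI0000274 had r above 0 in each of the 4 combinations of tissue and L number, from 0.024 to 0.655. MI0000808 and MI0000802 had r of 0.652 and 0.704 in L1 cortex, 0.328 and 0.278 in L8 cortex, 0.089 and 0.121 in L7 striatum, and -0.157 and -0.153 in L8 striatum.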

How the data were processed

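The labels' protocols give frozen tissue, column-purified total RNA (RNeasy) and Illumina libraries from its enriched subfractions. CASAVA 1.8.2 and mm10 are named in the submitters' processing notes. The aligner, counter and feature reference are not given in the sources used here. The authors deposited estimated counts per feature, unscaled, and FPKM values (count over feature length and library total), which were used here for implied lengths only.

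The miR-7 rows were summed into 1 feature of the whole table, and estimated counts were then rounded. edgeR 4.0.16 (R 4.3.3) used filterByExpr by group (minimum count 10, minimum total 15), TMM scaling and the quasi-likelihood test, with Benjamini-Hochberg adjustment over all features and a threshold of 0.05. Each tissue was fitted with 4 groups, sex and L number. Each library of a group is from another mouse. miR-7 failed the filter in liver and was kept in those fits. edgeR raises a p that falls under that of a Poisson fit, so some p exceed what their intervals imply. Exact permutation tests used log2 CPM after adding 0.5 counts. Alternatives used other scalings, filters and terms, single rows, DESeq2 1.42.0 and limma 3.58.1 (voom). The scripts were tested on simulated data. No 2 libraries of a group were identical or agreed within sampling noise (329 pairs).

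The named features were the miR-7 sum, its rows and the 5 features correlating best with it. Members and comparisons were chosen with earlier results of these data known. Sequences are from RefSeq and GENCODE M21 (GRCm38). A search for a seed match in a target gene is not reported here.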

Additional observations from a re-analysis of the deposited data

Results flagged for a closer look

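In cortex of neo-deleted WT mice, male 2 stood far below the other libraries of its group, at 13.8 CPM with the next library at 104 CPM (n = 8). The same library at 13.8 CPM also stood apart among the 5 libraries of its group in L1. In L2 liver of neo-deleted KI mice, male 2 stood above the other 5 libraries, at 95.8 CPM with the next at 30.2 CPM. Across the 24 groups and L number subsets checked, chance alone flags about 1 in 20.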

How the results depend on the processing

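No alternative called miR-7 between KI and WT mice, in any tissue, line or L number, nor in the differences between those effects: over 610 alternative fits of these 22 results the lowest adjusted p was 0.128. Over all 32 results, 210 alternative values and 697 values without 1 library kept the sign and the side of the threshold. Each value that turned round here was uncalled in the fit as reported, and the cause was not tested.

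Striatum over cortex in L8 WT mice (0.39, not called) passed with mir-7-1 alone (0.50, adjusted p = 0.0361), with total counts only (0.49, adjusted p = 0.0459), with all mice (0.45) and with all mice and the animal as a block (0.47), the last chosen after seeing the data, as was the animal block for the striatal minus the cortical effects. Without 1 library it ran from 0.26 to 0.58 and passed without striatum of neo-deleted WT female 3 (adjusted p = 0.0370). Liver over cortex ran from -6.65 to -1.75 without 1 library. L8 over L7 in striatum was called with total counts only (0.38).

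mir-7-3 alone, with few counts, gave values of the other sign: in cortex -1.25 (KI over WT, neo-deleted), 0.28 (neo-intact), -1.53 (their difference), 0.51 (WT lines), -4.00 (L1 neo-deleted), 0.037 (L1 neo-intact) and -0.069 (L8 over L1); in liver 1.31 (difference of lines), -0.40 (sex), 2.24 (L2 neo-deleted), 3.96 (L2 neo-intact) and -1.16 (L3 neo-intact); in striatum -0.21 (L8 over L7) and 5.45 (L8 neo-intact). It also gave -1.52 for striatum over cortex, 2.84 for the striatal minus the cortical neo-deleted effect, and -3.99 for liver over cortex, no longer called (adjusted p = 0.0756). mir-7-1 alone turned liver neo-deleted KI over WT (-0.10), liver WT lines (0.11), cortex sex (-0.036), L8 cortex neo-deleted (0.067) and the striatal minus the cortical neo-intact effect (0.18). DESeq2 turned liver neo-deleted KI over WT (-0.016), liver WT lines (0.070) and L8 over L1 in cortex (-0.011), and its size factors in edgeR turned that last value as well (-0.014). Total counts only turned L8 striatum neo-intact (0.018), and leaving out the L number turned the striatal minus the cortical neo-intact effect (0.11).

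Without 1 library each, the values ran from -0.39 to 0.40 for liver neo-deleted KI over WT, -0.84 to 0.087 for the liver difference of lines, -0.48 to 0.17 for liver WT lines, -0.10 to 0.11 for L8 over L1 in cortex, -0.074 to 0.054 for L8 striatum neo-intact and -0.11 to 0.080 for L8 cortex neo-deleted.

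With the replicate block, liver neo-deleted KI over WT was -0.066 and L8 over L1 in cortex -0.0026, and no call of miR-7 changed. KI and WT mice with the same number are different animals, and 1 to 4 of 7 or 8 such pairs per tissue and line correlated over 0.1, so the numbers do not pair the libraries. The block was not run for comparisons within an L number, between tissues or between sexes.

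These counts of called features moved by over 1.5 times. Striatum neo-deleted KI over WT had 29, and 10 without the L number and 44 with DESeq2. Cortex neo-intact KI over WT had 0, and 18 without the L number. Without the filter, liver gave 5 (neo-deleted), 6 (neo-intact), 9 (difference of lines) and 3 (WT lines) in place of 0. The striatal minus the cortical effect gave 10 with total counts and 1 without the L number in place of 6 in neo-deleted mice, and 104 without the L number and 1 without the filter in place of 6 in neo-intact mice. The striatal difference of lines had 0 in place of 1 without the L number, and L8 striatum neo-intact had 5 with DESeq2 in place of 3. Liver WT lines had 1 in place of 0 without the L number and with DESeq2, which also gave 1 in place of 0 in L2 liver of neo-intact mice. Without 1 library, counts also moved this much in L7 and L8 striatum and in liver, as given with those results. mir-7-2 alone could not be fitted, as it had no rounded count. The animal block gave no value for WT mice in L8, where 1 animal gave both tissues. Leaving out libraries was not run for the striatal minus the cortical effects.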
